A study of Mus musculus with 6 samples.

Results

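Genes that make, load or specify the use of the inhibitory transmitter GABA were followed across mouse cerebral cortex from control mice and from mice labelled as Cux2 knock-outs. The set holds 8 listed genes: Gad1, Gad2, Slc32a1, Lhx6, Dlx1, Dlx2, Dlx5 and Dlx6. They were found by the gene name printed on the array, which gave 10 probes for 7 of the 8 genes among 41174 probes in all. Slc32a1 stood under its current name, and Dlx6 is not analysed here because no probe bore its name. Of the 10 probes, 8 were tested, at least 1 for each of the 7 genes.

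Each group was represented by 3 arrays of cerebral cortex RNA from male mice, 1 array per sample. The samples labelled knock-out (numbers 53, 48 and 54) carry the genotype label Cux2-/-. The others (numbers 15, 62 and 16) are titled WT and described as wild-type, yet their genotype label reads Cux2+/-, so they are called controls here. The sources used here do not give strain, age, how the Cux2 allele was altered or whether the samples came from separate animals. The p-values therefore rest on sample-to-sample spread that may be technical. Between 59.2% and 73.3% of non-control spots were well above background on an array. The difference in Cux2 itself was -0.12 ± 0.10 (log2, SE, n = 3 per group) at its brighter probe. A dimmer probe assigned to Cux2, which the array names 1700051K22Rik, gave 0.079 ± 0.15, and the groups overlapped at both. Since the sources used here do not say which part of Cux2 was removed, these probes check nothing about the labels. Cortical excitatory markers, all 13 of 13 measured, had mean levels between 1.82 and 1.92 on all 6 arrays, on the scale used below.

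As background, cortical inhibitory neurons make GABA from glutamate with the decarboxylases encoded by Gad1 (GAD67) and Gad2 (GAD65), and load it into vesicles with the transporter encoded by Slc32a1. The Dlx homeodomain factors act in progenitors of the ventral forebrain that give rise to inhibitory neurons of cortex, striatum and olfactory bulb, and Lhx6 is a LIM-homeodomain factor of interneurons born in the medial ganglionic eminence. Cux2 is a homeodomain factor best known in upper-layer excitatory neurons.

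Levels are given as log2 of the background-corrected signal relative to the 75th percentile of the same array, so 0 is that percentile. Values of different probes on this scale cannot be set against each other, because probes differ in how brightly they bind. A difference of 1 is 2-fold.

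None of the 7 measured genes passed the test for a difference between the groups. In limma, 0 of 7 had an adjusted p under 0.05, and 1 of 7, Gad2, had an unadjusted p under 0.05. The background was 0.128% of 17124 genes past the adjusted threshold (0.129% of 25507 probes), 4.39% lower and 3.89% higher at an unadjusted p under 0.05. The median difference over the 7 genes was -0.018, beside -0.0060 over all genes tested, and the median size of the differences, whatever the sign, was 0.097 beside 0.091. With SEs between 0.09 and 0.24 the arrays could not resolve small changes. In bulk tissue, fewer cells of a type and less RNA per cell cannot be told apart.

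**Figure D1:**
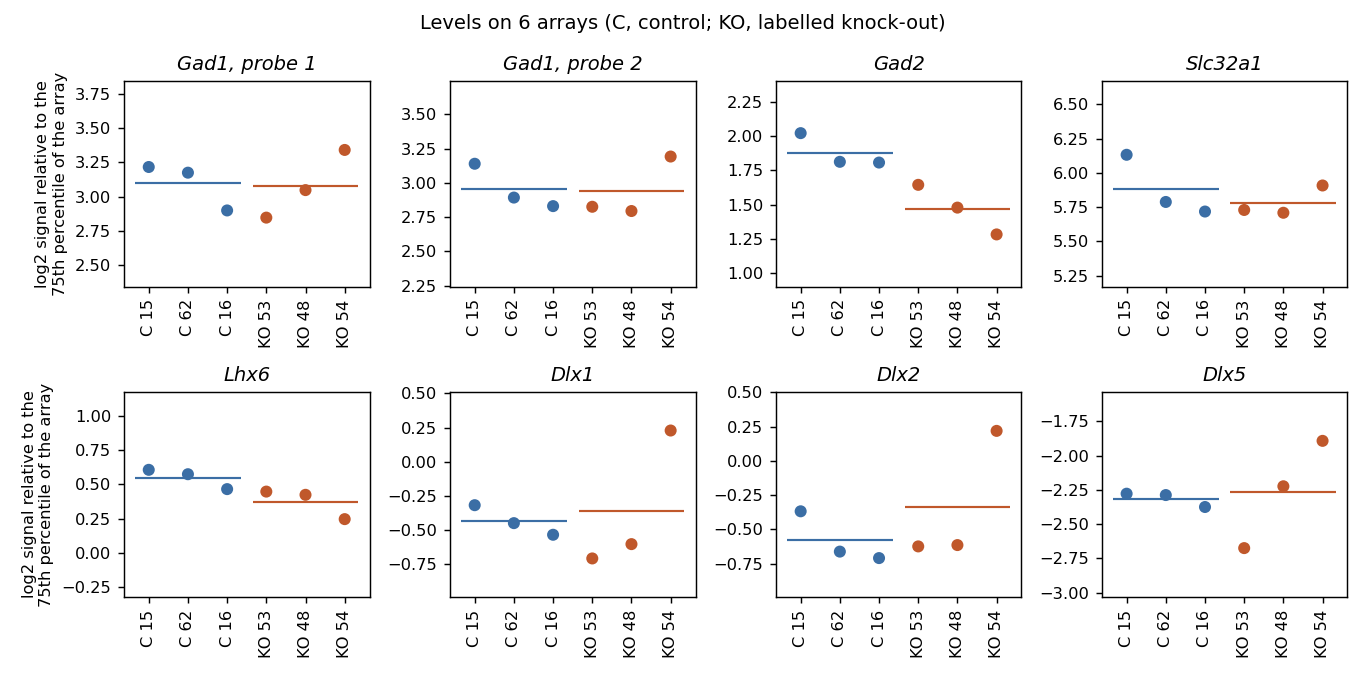
Level of each tested probe (y axis, log2 signal relative to the 75th percentile of the array; every panel spans 1.5 units) on the 3 control arrays (C, blue) and the 3 labelled knock-out arrays (KO, orange). Points are arrays and lines are group means. Gad2 and Lhx6 are the genes whose groups do not overlap, and Gad1 (both probes), Dlx1, Dlx2 and Dlx5 are highest on knock-out 54.

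Gad1, which encodes the decarboxylase that makes most of the brain's GABA, was measured by 2 bright probes. The brighter one read 3.22, 3.17 and 2.90 in controls 15, 62 and 16, against 2.85, 3.05 and 3.34 in knock-outs 53, 48 and 54. The groups overlapped, with the lowest and the highest value both among the knock-outs. The difference was -0.018 ± 0.15 (log2, SE), with a 95% interval of -0.38 to 0.35, or 0.767-fold to 1.27-fold (limma adjusted p = 0.989), and its sign turned without scaling between arrays (0.16), with quantile normalization (0.018) and in the authors' deposited values (0.013). It also turned without control 15 (0.041), without control 62 (0.021) and without knock-out 53 (0.097). The other bright probe gave 3.14, 2.89 and 2.83 in controls and 2.83, 2.79 and 3.19 in knock-outs, a difference of -0.017 ± 0.14. The gap between these probes, first minus second on the same array, ran from 0.021 to 0.28, and both probes were highest on knock-out 54. Another Gad1 probe, designed on a cDNA clone, was well above background on none of the arrays and was not tested.

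Gad2 encodes the decarboxylase found mainly in axon terminals. The probe named Gad2 read 2.02, 1.81 and 1.81 in controls 15, 62 and 16, against 1.64, 1.48 and 1.28 in knock-outs 53, 48 and 54. All 3 knock-outs were below all 3 controls. The difference was -0.41 ± 0.12 (log2, SE; 95% interval -0.70 to -0.13), or 0.752-fold, with an unadjusted p of 0.0117 that did not pass adjustment over all probes (limma adjusted p = 0.458). It was -0.64 within slide 1 (control 15 against knock-outs 48 and 54) and -0.17 within slide 2 (controls 62 and 16 against knock-out 53). With slide as a block it was -0.40 (limma adjusted p = 0.583).

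Another probe, which the array names 6330404F12Rik, a name that the RefSeq gene table of assembly GRCm38.p6 lists as a synonym of Gad2, did not separate the groups. The array describes it as a cDNA of unclassifiable product. It fell outside the naming rule and is given for comparison. It stood at 2.83, 2.64 and 2.52 in controls 15, 62 and 16 and at 2.41, 2.54 and 2.70 in knock-outs 53, 48 and 54. The difference was -0.11 ± 0.12 (log2, SE; limma adjusted p = 0.885), smaller in size than at the probe named Gad2. The gap between the probes, Gad2 minus 6330404F12Rik on the same array, was -0.81, -0.83 and -0.72 in controls and -0.76, -1.06 and -1.42 in knock-outs. Knock-out 53 thus lay among the controls, while 48 and 54 lay below them. The mean gap differed by -0.30 between the groups (two-sided exact permutation p = 0.30, n = 3 per group). The smallest p this design allows is 0.10, so the test could not pass 0.05 and does not show that the probes agree. The sources used here do not place either probe on the transcript. Averaging both probes gave a difference of -0.26 (limma adjusted p = 0.507), and without scaling between arrays the probe named Gad2 gave -0.24.

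**Figure D2:**
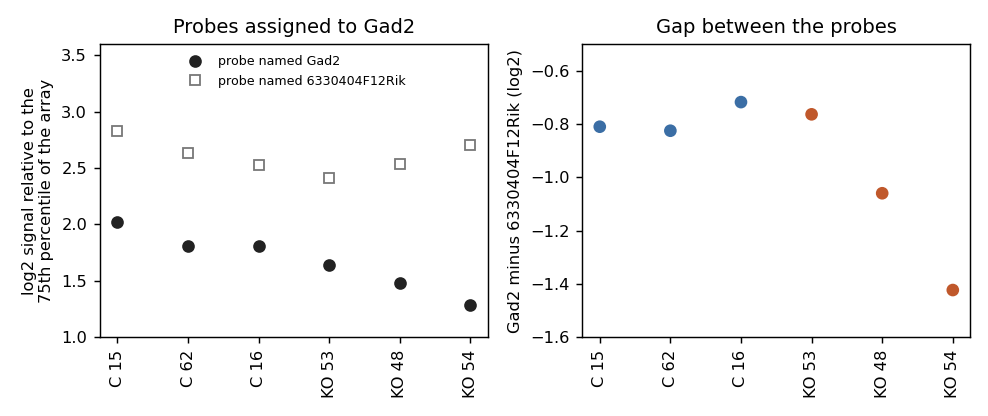
Left, level of both probes assigned to Gad2 (y axis, log2 signal relative to the 75th percentile of the array) on each array. Right, the probe named Gad2 minus the probe named 6330404F12Rik (log2; controls blue, labelled knock-outs orange), which ranged from -0.83 to -0.72 in controls and reached -1.42 on knock-out 54.

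Slc32a1 encodes the transporter that fills synaptic vesicles with GABA. Its single probe read 6.13, 5.79 and 5.72 in controls 15, 62 and 16, against 5.73, 5.71 and 5.91 in knock-outs 53, 48 and 54. The groups overlapped and the highest value was that of control 15. The difference was -0.097 ± 0.13 (log2, SE; 95% interval -0.41 to 0.21, limma adjusted p = 0.920), and it was 0.077 without scaling between arrays. Leaving out control 15 turned it to 0.029.

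Lhx6 was measured by a probe designed on a complete cDNA. It read 0.61, 0.57 and 0.47 in controls 15, 62 and 16, against 0.45, 0.42 and 0.25 in knock-outs 53, 48 and 54. The knock-outs were all below the controls, narrowly so for knock-out 53 against control 16. The difference was -0.18 ± 0.09 (log2, SE; 95% interval -0.39 to 0.040, limma adjusted p = 0.711), and without scaling between arrays it was -0.0015. A further Lhx6 probe, designed on the RefSeq transcript, passed the background call in 1 of 3 controls and 0 of 3 knock-outs and was not tested. Gad2 and Lhx6 are thus 2 of 7 genes whose knock-outs lay wholly below the controls, where 7.25% of all genes did. That is above the background share, but over 7 genes chosen with earlier results known no test was made of it.

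The Dlx genes are arranged as pairs of neighbours, Dlx1 with Dlx2 and Dlx5 with Dlx6. Dlx1 read -0.32, -0.45 and -0.53 in controls 15, 62 and 16, against -0.71, -0.60 and 0.23 in knock-outs 53, 48 and 54. Knock-outs 53 and 48 were therefore below every control and knock-out 54 above every control. The difference was 0.073 ± 0.24 (log2, SE; 95% interval -0.51 to 0.66, limma adjusted p = 0.972), and it was -0.042 with slide as a block. Without knock-out 54 it was -0.22 (limma adjusted p = 0.756).

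Dlx2 stood at -0.37, -0.66 and -0.71 in controls 15, 62 and 16 and at -0.62, -0.61 and 0.22 in knock-outs 53, 48 and 54. Knock-outs 53 and 48 lay inside the control range, and knock-out 54 again lay above it. The difference was 0.24 ± 0.24 (log2, SE; 95% interval -0.34 to 0.82, limma adjusted p = 0.881), and it was -0.039 without knock-out 54. Dlx5 stood at -2.28, -2.29 and -2.38 in controls and at -2.68, -2.22 and -1.89 in knock-outs, with the lowest and highest array both knock-outs. Its difference was 0.050 ± 0.19 (log2, SE; limma adjusted p = 0.975), -0.062 with slide as a block and -0.14 without knock-out 54.

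The antisense RNAs of the Dlx5 and Dlx6 neighbourhood were read by 3 probes that fall outside the naming rule. Dlx6os1, also called Evf2, stood at its brighter probe at -1.04, -1.42 and -1.42 in controls 15, 62 and 16 and at -1.48, -1.52 and -0.72 in knock-outs 53, 48 and 54. At that probe, as for Dlx1, Dlx2 and Dlx5, the highest array was knock-out 54. At its other probe the highest array was control 15, at -3.96, with knock-out 54 at -4.05. The differences were 0.055 ± 0.24 and 0.039 ± 0.14 (log2, SE). Dlx6os2, named Dlx6as on the array, read -3.01, -2.94 and -3.00 in controls 15, 62 and 16, against -2.72, -2.92 and -2.82 in knock-outs 53, 48 and 54. All 3 knock-outs lay above all 3 controls, the opposite direction to Gad2 and Lhx6. Over all genes tested, 1093 of 17124 lay wholly above the controls in this way. The difference was 0.17 ± 0.08 (log2, SE) and did not pass (limma adjusted p = 0.702).

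**Figure D3:**
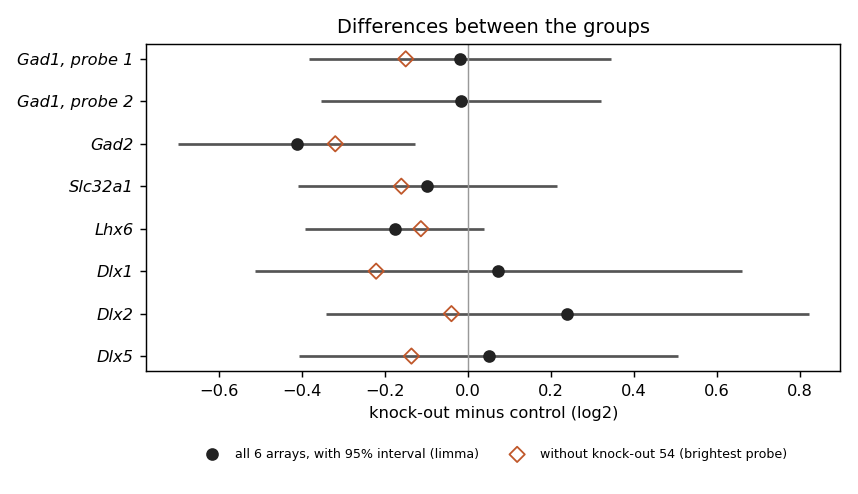
Knock-out minus control (x axis, log2) for each tested probe, with the 95% interval of the limma fit (n = 3 arrays per group). Open diamonds give the value without knock-out 54, the highest array for 4 of the 7 genes, at the brightest probe of each gene. All 7 diamonds lie below 0, from -0.32 for Gad2 to -0.039 for Dlx2.

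Bases before the start site are shown for both decarboxylase genes, whose named probes differed in how they placed knock-out 54, and for Dlx1 and Dlx2, which were both highest on that array. They come from a table of RefSeq start sites (GRCm38.p6), in which 6 of the 8 genes were matched. Windows of Dlx5 and Dlx6 are not analysed here. Each is the 250 bases before the annotated start, 5′ to 3′ on the gene's strand, with CpG dinucleotides in capitals.
Gad1, chr2:70561879-70562128, plus strand: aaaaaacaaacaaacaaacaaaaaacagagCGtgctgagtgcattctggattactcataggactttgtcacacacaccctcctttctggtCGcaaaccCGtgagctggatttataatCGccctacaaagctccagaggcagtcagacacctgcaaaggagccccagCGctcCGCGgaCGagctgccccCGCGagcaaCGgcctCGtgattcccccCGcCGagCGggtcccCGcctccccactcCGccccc
Gad2, chr2:22622077-22622326, plus strand: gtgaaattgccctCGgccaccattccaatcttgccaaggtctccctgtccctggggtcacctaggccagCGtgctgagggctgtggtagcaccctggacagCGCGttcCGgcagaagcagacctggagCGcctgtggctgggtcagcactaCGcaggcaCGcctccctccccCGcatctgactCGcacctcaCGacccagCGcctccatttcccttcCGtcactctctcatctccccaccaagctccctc
Dlx1, chr2:71529195-71529444, plus strand: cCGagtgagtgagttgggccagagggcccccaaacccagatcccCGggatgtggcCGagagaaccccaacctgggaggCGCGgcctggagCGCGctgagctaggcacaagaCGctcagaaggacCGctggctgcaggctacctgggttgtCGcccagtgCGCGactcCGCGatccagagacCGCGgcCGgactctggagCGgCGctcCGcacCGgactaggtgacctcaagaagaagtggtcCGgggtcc
Dlx2, chr2:71546755-71547004, minus strand: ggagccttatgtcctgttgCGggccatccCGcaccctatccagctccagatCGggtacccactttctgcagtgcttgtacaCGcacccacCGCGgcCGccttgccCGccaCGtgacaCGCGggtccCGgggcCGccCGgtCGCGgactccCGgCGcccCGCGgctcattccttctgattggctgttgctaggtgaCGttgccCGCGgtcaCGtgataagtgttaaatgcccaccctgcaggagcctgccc

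CpG dinucleotides numbered 17 for Gad1, 13 for Gad2, 22 for Dlx1 and 24 for Dlx2 in these windows, beside a median of 6 over 32851 windows of the same length. Slc32a1 had 12 and the 3 start sites of Lhx6 had 14, 17 and 7. The windows of these genes were thus all above the median in CpG number. Motifs were searched on both strands, and no matches overlapped. TATAAA was found once, on the opposite strand of Gad1, beginning 141 bases before the start (12.4% of all windows hold it). CCAAT was found in Gad2 at 226 bases, in Dlx2 at 74 bases and in Lhx6 at 193 and 96 bases of different start sites (33.8% of all windows). TAATTA, a homeodomain core (4.84% of all windows), and ATCGAT, a core bound by Cut-type factors (0.728%), were in none of the 8 windows of the 6 genes. A match is a description of letters only.

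Knock-out 54 stood apart in this set. It was the highest of the 6 arrays for 4 of the 7 genes (Gad1, Dlx1, Dlx2 and Dlx5), where 18.1% of all genes were highest on that array. It was also the lowest array for Gad2 and Lhx6, but the share of all genes lowest on that array was not counted. Against the mean of the other 5 arrays it was higher by 0.81 for Dlx2, 0.75 for Dlx1, 0.48 for Dlx5, 0.30 for Gad1 and 0.093 for Slc32a1 (log2), and the same comparison gave -0.26 for Lhx6 and -0.47 for Gad2.

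Markers of the olfactory bulb, a tissue in front of the cortex rich in GABAergic granule cells, moved with that array. Their mean deviation over 13 tested genes of 14 was -0.21, -0.15 and -0.25 in controls 15, 62 and 16, -0.53 and -0.50 on knock-outs 53 and 48, and 1.63 on knock-out 54 (log2). On that array 12 of the 13 were at their highest, all but Synpr. Their mean level ran from -1.14 to -1.04 over the controls and from -1.42 to 0.74 over the knock-outs. Shisa3 stood at -0.88 on knock-out 54 and between -4.61 and -3.27 on the other arrays. Trh, the precursor of thyrotropin-releasing hormone, stood at -1.66 against -4.86 to -3.67, and the zinc-finger factor Tshz1 at 1.94 against 1.08 to 1.21. Cdhr1, a cadherin of mitral cells singled out after its values were seen, stood at 1.38 against -2.09 to -1.27. Eomes, a further marker, had no tested probe. The part of olfactory bulb RNA in the Dlx values was not tested. Without knock-out 54 the knock-out mean was below the control mean for all 7 genes, with a median of -0.15 beside -0.0044 over all probes tested. That array was singled out after its values were seen. It was the highest for 4 of the 7 genes, and for Slc32a1 it was the highest of the knock-outs. Leaving it out therefore lowers the knock-out means of all these genes by construction. Leaving out any other single array put from 2 to 4 of the 7 below 0. Without knock-out 54, 0 passed the test in limma (1, Gad2, at an unadjusted p under 0.05).

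**Figure D4:**
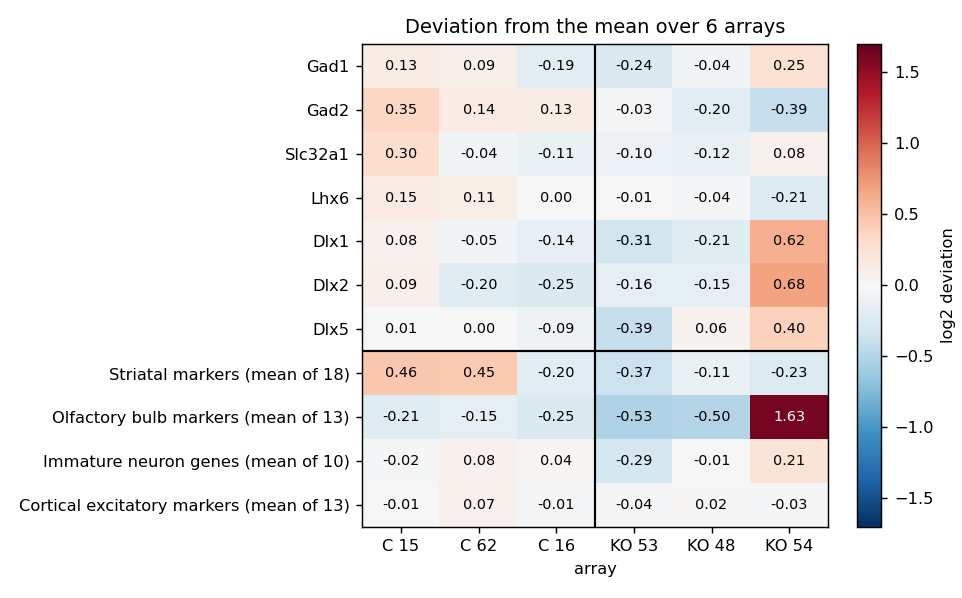
Log2 deviation of each gene from its mean over 6 arrays (rows above the line) and mean deviation of 4 marker lists (rows below it), by array (columns; C, control; KO, labelled knock-out). Dlx1, Dlx2 and Dlx5 reach 0.62, 0.68 and 0.40 on knock-out 54, where olfactory bulb markers reach 1.63.

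Markers of the striatum, a neighbouring tissue whose neurons are mostly GABAergic, were lower on average in the knock-outs. All 18 tested of 21 had a negative difference, with a median of -0.43, where 8876 of 17124 genes were lower. In limma 0 passed the adjusted threshold, and 5 had an unadjusted p under 0.05, where 4.39% of all genes did so in this direction. Only 2 of the 18 lay wholly below the controls, beside 7.25% of all genes. Their mean deviation was 0.46, 0.45 and -0.20 in controls 15, 62 and 16, against -0.37, -0.11 and -0.23 in knock-outs 53, 48 and 54. Control 16 thus lay inside the knock-out range, and the lower mean rests on controls 15 and 62. Their mean level ran from 0.19 to 0.85 over the controls and from 0.02 to 0.28 over the knock-outs. The D1 dopamine receptor gene Drd1 (-0.77 ± 0.20) and the adenylyl cyclase gene Adcy5 (-0.40 ± 0.10, log2, SE) had the lowest p, with Sh3rf2 at -0.75 and Gng7 at -0.35. The part of striatal RNA in the Gad2 value was not tested.

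Other genes of GABA handling and of interneurons were read from lists that share none of the 8 genes. The GABA handling list held 12 genes, all measured, most of them for uptake, breakdown or precursor supply of GABA. Of the 12, 5 were higher and 7 lower, with a median of -0.019, and 0 passed limma's adjusted threshold (1 with an unadjusted p under 0.05). That was Rab3b, a vesicle GTPase, at 0.38 ± 0.13 (log2, SE; limma adjusted p = 0.552). The betaine and GABA transporter gene Slc6a12 stood at -0.31, the GABA transaminase gene Abat at -0.13 and the glutamine transporter gene Slc38a3 at 0.15.

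Of 21 genes of interneuron specification and migration, 17 were tested, 7 higher and 10 lower, with a median of -0.053. Again 0 passed in limma, and 1 had an unadjusted p under 0.05, the leucine-zipper factor Maf at 0.27 ± 0.11 (log2, SE; adjusted p = 0.617). The LIM-homeodomain factor Lhx8 stood at -0.80 and the nuclear receptor Nr2f1 at 0.29. Of 22 subtype markers 20 were tested, 10 higher and 10 lower, with a median of -0.0029 and 0 past the test in limma (1 at an unadjusted p under 0.05). That was Crhbp, which encodes a binding protein of corticotropin-releasing hormone, at 0.40 ± 0.08 (log2, SE; limma adjusted p = 0.253).

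Crhbp stood at 0.95, 0.81 and 0.88 in controls 15, 62 and 16 and at 1.37, 1.24 and 1.22 in knock-outs 53, 48 and 54. All knock-outs, 54 among them, were above all controls. The same held for 1093 of 17124 genes tested. Among the 20 subtype markers it held for 2, Crhbp and Lamp5, and 0 lay wholly below the controls. Tac1, a tachykinin precursor gene also on the striatal list, stood at -0.57, the membrane protein gene Lamp5 at 0.17 and the calcium-binding protein gene Calb1 at -0.15. Over these 3 lists the medians were -0.019 (GABA handling), -0.053 (specification and migration) and -0.0029 (subtype markers), beside -0.0060 over all genes.

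**Figure D5:**
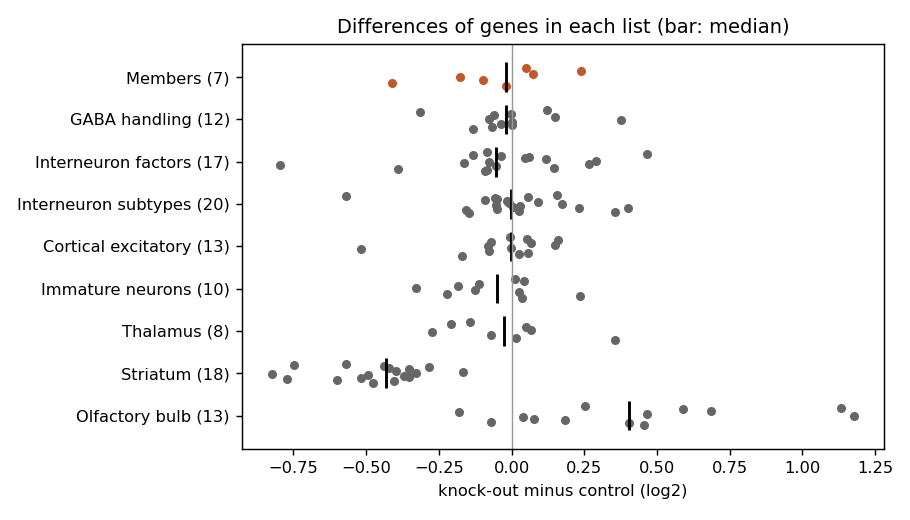
Knock-out minus control (x axis, log2) for each tested gene of the set (orange, brightest probe) and of 8 other lists (grey); bars are medians and numbers in brackets are genes tested. The 3 lists of GABA handling and interneuron genes centre near 0, while striatal markers centre at -0.43 and olfactory bulb markers at 0.40. The mean difference of the olfactory bulb list was 0.40 with knock-out 54 and -0.31 without it.

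Among the remaining lists, 0 genes passed in limma. Cortical excitatory markers had a median of -0.0011 (13 of 13 tested, 1 at an unadjusted p under 0.05), with Fezf2, a factor of subcerebral projection neurons, at -0.52 ± 0.16, Bcl11b at -0.17 and Neurod6 at 0.15. Genes of immature neurons had a median of -0.050 (10 of 10 tested, 2 at an unadjusted p under 0.05), with Sox11 at -0.33, Dpysl3 at -0.22, Stmn2 at -0.11 and the migrating-neuron protein gene Dcx at 0.23. Thalamic markers had a median of -0.028 (8 of 10 tested, 1 at an unadjusted p under 0.05), with Ramp3 at -0.27, Tcf7l2 at -0.21, Rora at 0.07 and Calb2 at 0.36. Calb2, also an interneuron marker, stood at 0.09 on knock-out 54 and between -1.86 and -1.12 on the other arrays.

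The mean profile of the 7 genes over the arrays, as deviation from each gene's mean, was 0.16, 0.006 and -0.09 on controls 15, 62 and 16 and -0.18, -0.10 and 0.20 on knock-outs 53, 48 and 54. The genes did not share this profile. On knock-out 54, Dlx1, Dlx2, Dlx5, Gad1 and Slc32a1 deviated by 0.62, 0.68, 0.40, 0.25 and 0.077. Lhx6 and Gad2 deviated by -0.21 and -0.39 there, so likeness to the mean is not likeness to each gene. Among 17067 other genes, those with the most similar profile by Pearson r over the 6 arrays were Nap1l3 (0.985), Snrnp27 (0.984), Rhoj (0.982), D430042O09Rik (0.982) and Afap1l2 (0.981). Over these 6 arrays 153 genes (0.896%) had r of at least 0.9. Nap1l3, for example, stood at 1.38, 1.29 and 1.23 in controls and at 1.17, 1.24 and 1.37 in knock-outs.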

How the data were processed

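Cortex RNA from 3 controls and 3 samples labelled Cux2 knock-out was measured on 1-colour Agilent arrays, 1 per sample, with groups taken from the sample titles. Per the file headers, Agilent Feature Extraction 9.1.3.1 gave each spot an intensity that was background-subtracted and detrended within the array. A further table deposited by the authors holds log2 values that, set against the scanner values, are quantile normalized (median 6.76 in all 6 columns) and not centred by gene. The sources used here do not give the build behind the array's names.

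Control spots and 120 spots with outlier flags were left out, and spots of 1 probe averaged. The main values are log2 processed intensity minus the 75th percentile of each array. A probe was kept if every array of either group had it well above background, and limma 3.58.1 (lmFit, eBayes; R 4.3.3) tested the kept probes, two-sided, with Benjamini-Hochberg adjustment over 25507 probes at 0.05. This filter uses the group labels. Genes were read at their brightest tested probe. Probes outside the set were named through RefSeq accessions (22951), symbols (6659) or synonyms (3109) of GRCm38.p6, and 8455 kept the array's name. Alternatives changed scaling, background correction, filter, variance model, probe summary, slide, source and arrays. The procedure was tested on simulated data with independent noise per probe and array. That simulation held no slide or tissue effect and does not bear on the differences reported here. Figures used matplotlib 3.10.9.

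The genes and lists were chosen with earlier results of these data known. Text names all 8 genes, up to 4 genes of lowest p per list, and the 5 genes of most similar profile; some list genes that this rule picks are not reported here.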

Additional observations from a re-analysis of the deposited data

How the results depend on the processing

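The genes past the adjusted threshold among the 7 numbered 0 in all 17 alternatives (limma), and Gad2 alone reached an unadjusted p under 0.05 in 15 of them, the exceptions being no scaling between arrays and normexp background correction. Gad2 stayed below 0 in all 17 (-0.50 to -0.24, adjusted p from 0.317 to 0.988) and Lhx6 too (-0.22 to -0.0015, adjusted p from 0.609 to 0.995). Signs turned as follows, and the cause was not tested. Without scaling between arrays, which moved the median of all probes to 0.17, Gad1 was 0.16 and Slc32a1 0.077. Gad1 was 0.018 with quantile normalization and 0.013 in the authors' deposited values. With slide as a block Dlx1 was -0.042 and Dlx5 -0.062. Leaving out 1 array at a time gave -0.15 to 0.097 for Gad1, -0.18 to 0.029 for Slc32a1, -0.22 to 0.25 for Dlx1, -0.039 to 0.38 for Dlx2 and -0.14 to 0.26 for Dlx5; the lowest values of the Dlx genes were those without knock-out 54. Over all probes the 33 calls became 3 with a filter of at least 1 array, 2 without a filter, 15 with slide as a block and 0 with normexp (149 at an unadjusted p under 0.05), and from 2 to 60 with 1 array left out. The lowest, 2, was without control 16, and other counts were 7 without control 15, 12 without knock-out 54 and 60 without knock-out 53. Genes of the 8 other lists past the threshold numbered 0 with slide as a block and with each array left out. No paired analysis was made because the labels state no pairing. The groups have no sample number in common, but this does not show that the samples were unpaired. The number of arrays limits the precision.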
